A study of Mus musculus with 8 samples.

Results

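The 9 genes described here are surface and granule markers of T cells, natural killer (NK) cells and innate lymphoid cells: Cd4, Cd8a, Cd3d, Cd3e, Cd3g, Thy1, Il7r, Nkg7 and Gzma. They were chosen by symbol, each matched 1 Ensembl identifier, and they are 9 of the 54446 gene rows in the tables, of which 21197 had a count in at least 1 library. The study, described as one of murine asthma, sorted eosinophils from C57BL/6 mice and measured their RNA by CEL-Seq, which reads transcript ends after linear amplification. The 8 libraries fall into 3 labelled groups: SiglecFhi/CD101+ eosinophils (2 libraries, replicates 1 and 2), Siglec-Fint/CD101- eosinophils (2 libraries, replicates 1 and 2) and resident eosinophils (4 libraries, replicates 3 to 6). Its title names resident lung eosinophils, and the labels do not say which groups came from mice with induced asthma. They give no genotype, age, sex, treatment or animal for any of them, so a difference in any of these cannot be told apart from the groups. Nothing says that replicates came from separate mice, so each p-value reflects the spread among these libraries alone, which may be technical.

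Siglec-F and CD101 are surface proteins used to sort the subsets. T cells recognise antigen through a receptor whose alpha and beta chains, encoded in part by the constant genes Trac and Trbc1 or Trbc2, signal through the CD3 chains and the zeta chain CD247. CD4 and CD8 are coreceptors that bind MHC class II and class I molecules and divide T cells into helper and cytotoxic classes. NK cells and innate lymphoid cells lack the antigen receptor, and carry other surface receptors, cytotoxic granules or, in group 2 innate lymphoid cells, the IL-33 receptor. In the allergic lung, T helper 2 and group 2 innate lymphoid cells are known sources of the IL-5 on which eosinophils depend.

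The libraries differed in depth and make-up. Total counts were 3109428 and 1513517 in SiglecFhi/CD101+ libraries, 1517159 and 2990294 in Siglec-Fint/CD101- libraries and 5600610 to 11583550 in resident libraries. Outside genes of the mitochondrial genome, the subset libraries held 444902 to 552121 counts each and the resident libraries 2137819 to 5296468. The floor of a library, the share that a count of 0 allows (3 counts), was 0.965 to 1.98 CPM (counts scaled to a library of 1000000) in the 4 subset libraries and 0.259 to 0.536 CPM in the resident ones. These floors use the plain library totals, while all other CPM values use library sizes adjusted by TMM, so the 2 scales differ. Of 11 eosinophil markers, 7 had a count in SiglecFhi/CD101+ libraries, 7 in Siglec-Fint/CD101- libraries and 10 in resident ones, and their summed level was 149 to 450 CPM, 164 to 296 CPM and 188 to 455 CPM in that order. The ribonuclease gene Ear2 led the list with 88 and 196 counts in SiglecFhi/CD101+ libraries, 210 and 149 in Siglec-Fint/CD101- libraries and 1348 to 3706 in resident ones. In CPM, Ear2 was at 46.7 and 120, 153 and 92.5, and 125 to 291 in that order. Other markers on the list are named for their values. The granule gene Prg3 had 0 counts in every library, and Epx had 25 in resident replicate 5 and 0 elsewhere. Il5ra had 0 counts in every subset library and 1, 0, 0 and 57 in resident ones. Prg2 had 73 and 385 counts in SiglecFhi/CD101+ libraries, 1 and 3 in Siglec-Fint/CD101- libraries and 63 to 121 in resident ones. Of the sorting markers, Siglecf had 19 and 44 counts in SiglecFhi/CD101+ libraries, 0 and 0 in Siglec-Fint/CD101- libraries and 61 to 559 in resident ones. In CPM, Siglecf in SiglecFhi/CD101+ libraries (10.1 and 26.8) lay within the resident range of 4.28 to 43.9. Cd101 had 2 and 1 counts in SiglecFhi/CD101+ libraries, 0 and 1 in Siglec-Fint/CD101- libraries and 60 to 504 in resident ones. How much of each library came from eosinophils was not tested, and in bulk RNA fewer cells of a type and less RNA per cell cannot be told apart.

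No marker passed edgeR's quasi-likelihood test in any of the 3 comparisons (Benjamini-Hochberg adjusted p under 0.05 over the 11828 genes tested). Such calls were rare for all genes. They came to 0.0254% of genes for SiglecFhi/CD101+ against resident libraries, 0.0592% for Siglec-Fint/CD101- against resident (0.0338% higher) and 0.00845% for SiglecFhi/CD101+ against Siglec-Fint/CD101- libraries. Cd3e and Cd3g had too few counts to be tested, so 7 of the 9 markers were. Before adjustment, 3 of 7 markers had p under 0.05 in SiglecFhi/CD101+ against resident libraries, 1 higher (Cd4) and 2 lower (Nkg7, Gzma), where 3.65% of all genes were higher and 13.1% lower. In Siglec-Fint/CD101- against resident libraries there was 1 higher (Cd4) and 1 lower marker (Thy1), where 1.9% of genes were higher and 13.8% lower. In SiglecFhi/CD101+ against Siglec-Fint/CD101- libraries there was 1 higher (Thy1) and 1 lower (Gzma), where 9.98% and 7.96% of genes were. DESeq2, run as an alternative, called 2 of the markers (Cd4 and Nkg7) in the first comparison, 1 (Cd4) in the second and 2 (Thy1 and Gzma) in the third, where it called 9.41%, 6.52% and 12.4% of all genes for which it gave an adjusted p.

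**Figure D1:**
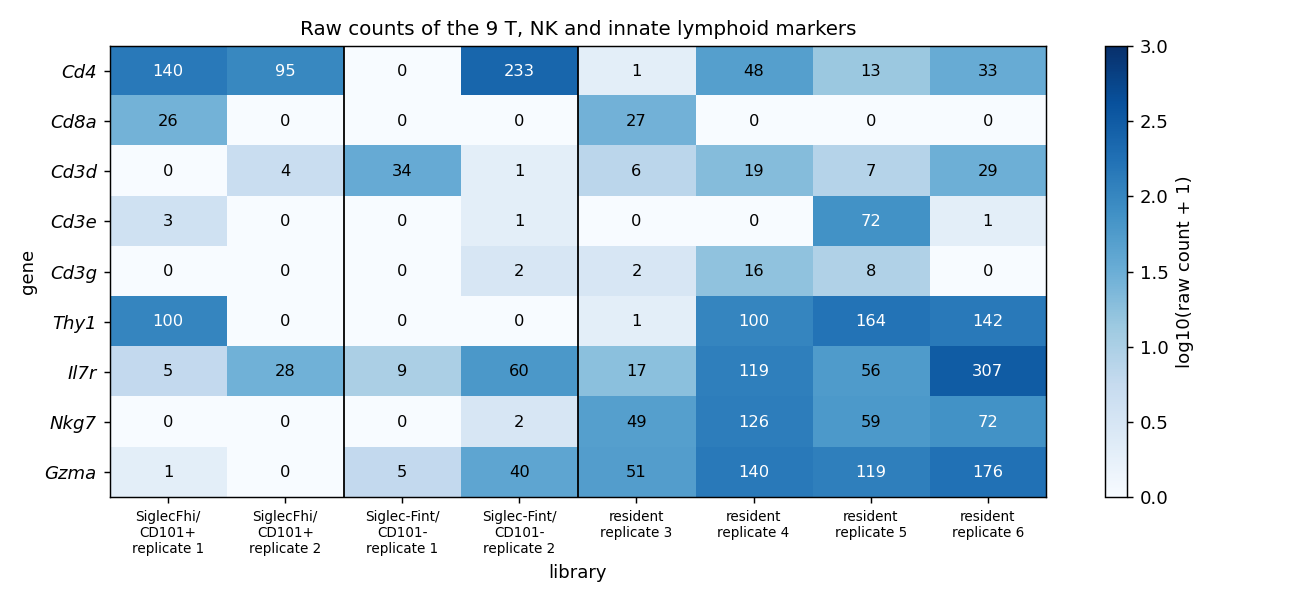
Raw counts of the 9 markers (rows) in the 8 libraries (columns, grouped by label and divided by vertical lines); shading is log10(raw count + 1). Nkg7 and Gzma had 49 to 176 counts in each resident library and 0 or 1 in each SiglecFhi/CD101+ library, while Cd4 had 140 and 95 counts in SiglecFhi/CD101+ libraries and 1 to 48 in resident libraries.

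The cytotoxic markers Nkg7 and Gzma gave the steadiest resident signal of the set, so the DNA around their starts is shown first. The windows are from RefSeq on GRCm38.p6, run from 250 bases before the start to 50 after it, and read 5′ to 3′ on the gene's strand. Capitals mark every match, on either strand, to 4 short motifs bound by factors of lymphocyte genes: GGTGTG (T-box core), TGTGGT (RUNX core), AGGAAG (ETS core) and TTCNNNGAA (STAT site). No 2 matches overlap in these windows. The Nkg7 window is at chr7:43436888-43437187 (plus strand) and the Gzma window at chr13:113100932-113101231 (minus strand).
Nkg7: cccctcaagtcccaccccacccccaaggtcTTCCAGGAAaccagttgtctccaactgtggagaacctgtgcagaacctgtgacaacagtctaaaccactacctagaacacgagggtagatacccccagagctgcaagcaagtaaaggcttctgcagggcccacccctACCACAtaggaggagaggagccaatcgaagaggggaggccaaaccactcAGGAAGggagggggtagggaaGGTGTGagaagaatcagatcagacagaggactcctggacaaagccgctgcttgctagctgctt
Gzma: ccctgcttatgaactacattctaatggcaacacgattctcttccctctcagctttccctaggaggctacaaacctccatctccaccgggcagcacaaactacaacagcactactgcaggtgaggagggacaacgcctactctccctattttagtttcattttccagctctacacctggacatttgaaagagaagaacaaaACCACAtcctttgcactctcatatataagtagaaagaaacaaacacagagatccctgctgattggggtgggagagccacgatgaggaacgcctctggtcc
Positions count from the RefSeq start, which for Nkg7 (43437138) lies 65 bases inside the GENCODE start of the gene and for Gzma is the same base. The Nkg7 window held 1 match to each motif, the T-box core at position -13, the ETS core at -34, the RUNX core at -83 and the STAT site at -220. The Gzma window held only a RUNX core match, at -50. Of 32851 windows of the same length, 19.0% held the T-box core, 16.8% the RUNX core, 35.4% the ETS core and 8.3% the STAT site. Among the 7 markers with a window in the table, 2 held the T-box core, 3 the RUNX core, 4 the ETS core and 3 the STAT site. A match is a description of letters, not of binding.

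Nkg7, which encodes a membrane protein of cytotoxic granules in NK cells and CD8 T cells, lies on chromosome 7 from 43437073 to 43438249 (GRCm38, plus strand; ENSMUSG00000004612). It had 0 and 0 counts in SiglecFhi/CD101+ libraries, 0 and 2 in Siglec-Fint/CD101- libraries, and 49, 126, 59 and 72 in resident libraries. In CPM, with library sizes adjusted by TMM, the level was 0.621 ± 0.878 in Siglec-Fint/CD101- libraries (SD, n = 2) and 6.75 ± 2.75 in resident libraries (SD, n = 4). Every resident library lay above every subset library. Over summed counts, and with 3 counts for a group with 0, Nkg7 in SiglecFhi/CD101+ libraries was at least 13.2-fold lower than in resident ones, or at least 5.96-fold lower per count outside the mitochondrial genome. With 1 SiglecFhi/CD101+ library left out, the bound was 4.31-fold or 8.85-fold. All ratios to resident libraries given here per count of the whole library are 2.21 times as high for SiglecFhi/CD101+ and 2.29 times as high for Siglec-Fint/CD101- libraries when taken per count outside the mitochondrial genome. The Siglec-Fint/CD101- ratio to resident libraries was 0.052 (exact 95% counting interval 0.00626 to 0.189). These intervals and floors take in counting error and nothing else. The edgeR test gave an adjusted p of 0.238 for SiglecFhi/CD101+ and of 0.397 for Siglec-Fint/CD101- against resident libraries. Values that did not overlap in this direction were common: 27.4% of tested genes were lower without overlap in SiglecFhi/CD101+ libraries and 29.3% in Siglec-Fint/CD101- libraries.

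Gzma encodes granzyme A, a serine protease of cytotoxic granules in NK cells, killer T cells and some innate lymphoid cells (chromosome 13, 113093825 to 113100981, minus strand; ENSMUSG00000023132). It had 1 and 0 counts in SiglecFhi/CD101+ libraries, 5 and 40 in Siglec-Fint/CD101- libraries, and 51, 140, 119 and 176 in resident libraries. In CPM it was at 0.265 ± 0.375 in SiglecFhi/CD101+, 14.2 ± 14.99 in Siglec-Fint/CD101- libraries, and 9.89 ± 1.71 in resident ones. The SiglecFhi/CD101+ libraries lay below all others, while the Siglec-Fint/CD101- libraries fell on either side of the resident range of 8.34 to 11.7 CPM. The log2 fold change of SiglecFhi/CD101+ libraries was -5.08 ± 2.06 (SE) against resident (adjusted p = 0.254) and -5.60 ± 2.18 against Siglec-Fint/CD101- libraries (adjusted p = 0.243), by edgeR. Over summed counts the ratios were 0.0159 (95% counting interval 0.000403 to 0.0893) against resident and 0.0217 (0.000537 to 0.127) against Siglec-Fint/CD101- libraries. The second was 0.0656 without Siglec-Fint/CD101- replicate 2, which held 40 of that group's 45 counts. Of tested genes, 11.9% were lower without overlap in SiglecFhi/CD101+ than in Siglec-Fint/CD101- libraries. For Siglec-Fint/CD101- against resident libraries the log2 fold change was 0.53 ± 1.41, and its sign changed with library totals alone (-0.66) and without Siglec-Fint/CD101- replicate 2 (-1.46). The order of the group means thus placed SiglecFhi/CD101+ last, with no order between the other groups that held across scalings.

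The wider list of cytotoxic and NK genes holds 19 genes, of which Klrc1 and Xcl1 had 0 counts in every library, 9 passed the filter on low counts and 0 passed edgeR's test in any comparison. Before adjustment, p was under 0.05 for 1 gene, lower, in SiglecFhi/CD101+ against resident libraries, and for 1 higher and 1 lower in each of the other comparisons. Of all genes tested, 13.1% were lower in SiglecFhi/CD101+ against resident libraries. In Siglec-Fint/CD101- against resident 1.9% were higher and 13.8% lower, and between the subsets 9.98% and 7.96%. The median log2 fold changes of these 9, with genes at 0 in a group set at their bound, were -0.84 for SiglecFhi/CD101+ and -0.13 for Siglec-Fint/CD101- against resident libraries, where those of all genes tested were -0.65 and -0.72. Klrd1, which encodes CD94, a lectin-like NK receptor chain, had 0 and 0 counts in SiglecFhi/CD101+ libraries, 10 and 31 in Siglec-Fint/CD101- libraries, and 64, 251, 129 and 280 in resident libraries. Over summed counts its SiglecFhi/CD101+ level was at least 31.1-fold below that of resident libraries, or 14.1-fold per count outside the mitochondrial genome (adjusted p = 0.173, edgeR), and both SiglecFhi/CD101+ libraries lay below all others, as they did for Gzma. Klrk1, the activating receptor NKG2D, had 1 and 3 counts in SiglecFhi/CD101+ libraries, 0 and 1 in Siglec-Fint/CD101- libraries, and 30, 125, 123 and 429 in resident libraries, with every resident library highest. Its ratio to resident libraries was 0.0439 (0.0119 to 0.113) for SiglecFhi/CD101+ and 0.0112 (0.000284 to 0.0629) for Siglec-Fint/CD101- libraries (adjusted p = 0.339 and 0.296, edgeR). Of tested genes, 27.4% in SiglecFhi/CD101+ and 29.3% in Siglec-Fint/CD101- libraries were lower than in resident ones without overlap. In SiglecFhi/CD101+ against Siglec-Fint/CD101- libraries, 11.9% were lower without overlap, as Klrd1 was. Ccl5, a chemokine of activated lymphocytes, overlapped between groups, and Srgn, the granule proteoglycan that many leukocytes make, had a log2 fold change of 0.21 ± 0.39 for SiglecFhi/CD101+ against resident libraries. Ncr1, the NK receptor NKp46, chosen with its values known, had 4 counts in SiglecFhi/CD101+ replicate 1 and 0 in every other library.

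Cd4 stood out in the other direction (chromosome 6, 124864692 to 124888221, minus strand; ENSMUSG00000023274). The gene is the helper T cell coreceptor, and in mice some dendritic cells also carry it. It had 140 and 95 counts in SiglecFhi/CD101+ libraries, 0 and 233 in Siglec-Fint/CD101- libraries, and 1, 48, 13 and 33 in resident libraries. In CPM it was at 66.1 ± 11.5 in SiglecFhi/CD101+, 72.3 ± 102 in Siglec-Fint/CD101- libraries, and 1.76 ± 1.58 in resident ones. Both SiglecFhi/CD101+ libraries lay above every resident library, as 6.78% of tested genes did, whereas 1 Siglec-Fint/CD101- library held the highest value of all and the other none, so that group overlapped the resident one (4.46% of tested genes were higher there without overlap). The log2 fold change was 5.20 ± 1.47 (SE; adjusted p = 0.155) for SiglecFhi/CD101+ and 5.33 ± 1.47 (adjusted p = 0.256) for Siglec-Fint/CD101- against resident libraries. Over summed counts the ratio of SiglecFhi/CD101+ to resident libraries was 19.2 (95% counting interval 15.05 to 24.6), and 42.3 (33.2 to 54.3) per count outside the mitochondrial genome. The first comparison passed with DESeq2 (adjusted p = 0.0227), without a filter on low counts (0.00237) and without Siglec-Fint/CD101- replicate 1 (0.0463). Over all 15 alternatives its adjusted p ran from 0.00237 to 0.374. The second passed with DESeq2 (0.0302) and without a filter (0.00251). Without Siglec-Fint/CD101- replicate 2, the library with all 233 counts, that group had 0 counts and the fitted value was -6.78. Between the subsets Cd4 differed by -0.13 ± 1.64. Markers of dendritic cells, all 9 of which had counts, summed to 47 to 139 CPM in SiglecFhi/CD101+, 176 to 197 CPM in Siglec-Fint/CD101- libraries, and 134 to 193 CPM in resident ones. Their part in the Cd4 counts was not tested.

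Cd8a, the alpha chain of the killer T cell coreceptor (chromosome 6, 71373427 to 71379173, plus strand; ENSMUSG00000053977), was found in 2 libraries. It had 26 and 0 counts in SiglecFhi/CD101+ libraries, 0 and 0 in Siglec-Fint/CD101- libraries, and 27, 0, 0 and 0 in resident libraries. At this depth the Siglec-Fint/CD101- libraries could show no difference from resident libraries, since the resident level was 1.13-fold the limit that 0 counts set over that group, and 0.495-fold per count outside the mitochondrial genome. The log2 fold change of SiglecFhi/CD101+ against resident libraries was 2.64 ± 2.42 (adjusted p = 0.595, edgeR), it rested on SiglecFhi/CD101+ replicate 1, and it was -6.08 without that library. A fit against 0 counts, as here, depends on the method and gives a direction rather than a size.

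**Figure D2:**
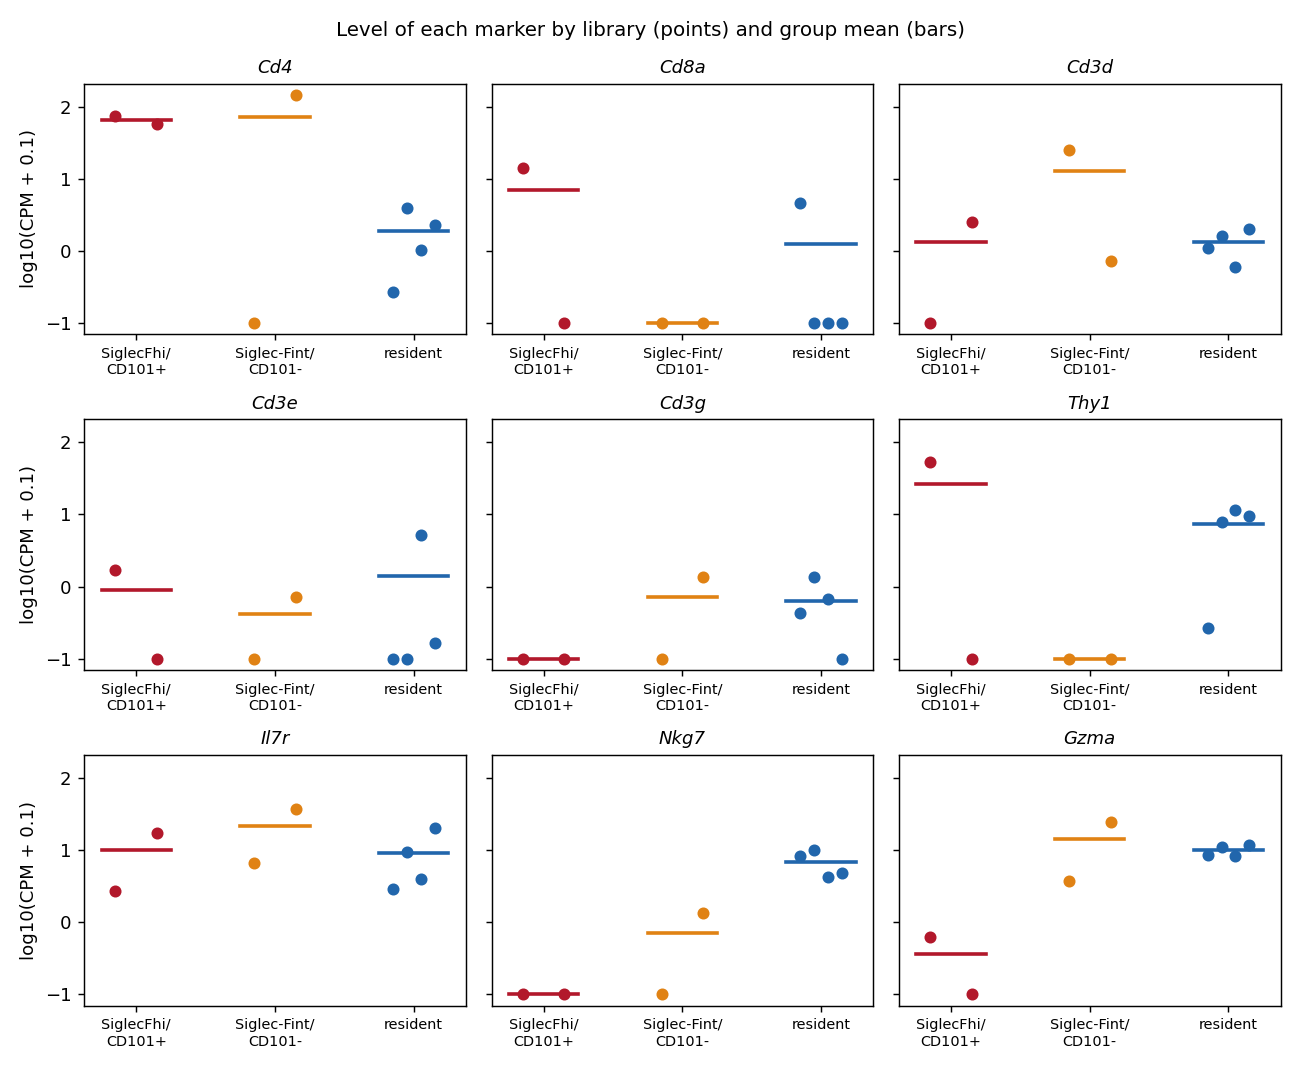
Level of each marker in each library, as log10(CPM + 0.1), with CPM scaled by TMM-adjusted library sizes; points are libraries, horizontal bars are group means of CPM on the same scale, and a value of -1 is a count of 0. The resident points of Nkg7 (4.14 to 9.91 CPM) and Gzma (8.34 to 11.7 CPM) lie close together, and the Siglec-Fint/CD101- points of Cd4 lie at 0 and 145 CPM.

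The CD3 genes, whose products join every T cell receptor on the cell surface, had few counts, and each peaked in another library. They lie within 40056 bases of chromosome 9, with Cd3g (44969572 to 44980431, minus strand; ENSMUSG00000002033) and Cd3d (44981786 to 44987339, plus strand; ENSMUSG00000032094) starting 1355 bases apart in opposite directions, and Cd3e beyond them (44998740 to 45009627, minus strand; ENSMUSG00000032093). Cd3d had 0 and 4 counts in SiglecFhi/CD101+ libraries, 34 and 1 in Siglec-Fint/CD101- libraries, and 6, 19, 7 and 29 in resident libraries. It was the CD3 gene with counts in all 4 resident libraries, at 1.23 ± 0.621 CPM (SD, n = 4), and its highest level was 24.7 CPM in Siglec-Fint/CD101- replicate 1. Cd3e had 3 and 0 counts in SiglecFhi/CD101+ libraries, 0 and 1 in Siglec-Fint/CD101- libraries, and 0, 0, 72 and 1 in resident libraries. Cd3g had 0 and 0 counts in SiglecFhi/CD101+ libraries, 0 and 2 in Siglec-Fint/CD101- libraries, and 2, 16, 8 and 0 in resident libraries. The groups overlapped for each of the 3 genes. For Cd3g the resident level was 1.12-fold the limit that 0 counts set for SiglecFhi/CD101+ libraries, and 0.506-fold per count outside the mitochondrial genome, so a difference was not detectable at this depth. The log2 fold change of Cd3d was -0.03 ± 1.86 (adjusted p = 0.996) for SiglecFhi/CD101+ and 3.34 ± 1.71 (adjusted p = 0.335) for Siglec-Fint/CD101- against resident libraries, by edgeR. The Siglec-Fint/CD101- value was -1.03 without Siglec-Fint/CD101- replicate 1, which held 34 of the 35 counts. Between the subsets, SiglecFhi/CD101+ against Siglec-Fint/CD101-, it was -3.38 ± 2.28 (adjusted p = 0.43), and 0.91 without that library. Cd3e overlaps an antisense gene and a short gene of unknown status, both with 0 counts in these tables.

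Counts of the CD3 genes and of the antigen receptor genes they work with came from different libraries in part. Of the 7 genes Cd3d, Cd3e, Cd3g, Cd247, Trac, Trbc1 and Trbc2, resident replicate 5 was the only one of the 8 libraries with more than 3 counts of all 7, and Siglec-Fint/CD101- replicate 2 had more than 3 counts of none. Among resident libraries, replicate 5 also had the most lung epithelial Scgb1a1, Sftpc, Ager and Sftpa1, but not Epcam, named for its value. Scgb1a1 was at 7562 CPM there and at 500 to 4330 CPM in the other resident libraries. The part of lung tissue in the receptor counts was not tested. Cd247, Trac and Trbc1 were picked knowing their values. Trbc2, 1 of the 2 near-identical beta chain constant genes, among which reads may be split, had 529 and 102 counts in SiglecFhi/CD101+ libraries, 141 and 1 in Siglec-Fint/CD101- libraries, and 1, 390, 159 and 97 in resident libraries. Its ratio of SiglecFhi/CD101+ to resident libraries was 7.56 (6.76 to 8.45), or 16.7 (14.9 to 18.7) per count outside the mitochondrial genome, with a log2 fold change of 3.82 ± 1.38 that did not pass (adjusted p = 0.229, edgeR). Trac had 122 and 0 counts in SiglecFhi/CD101+, 145 and 0 in Siglec-Fint/CD101- libraries, and 2, 1, 117 and 1 in resident ones. In the Siglec-Fint/CD101- group, replicate 1 carried Cd3d, Trac and Trbc2 with 0 counts of Cd4, and replicate 2 carried 233 counts of Cd4 with at most 2 counts of any of the 7 receptor genes.

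**Figure D3:**
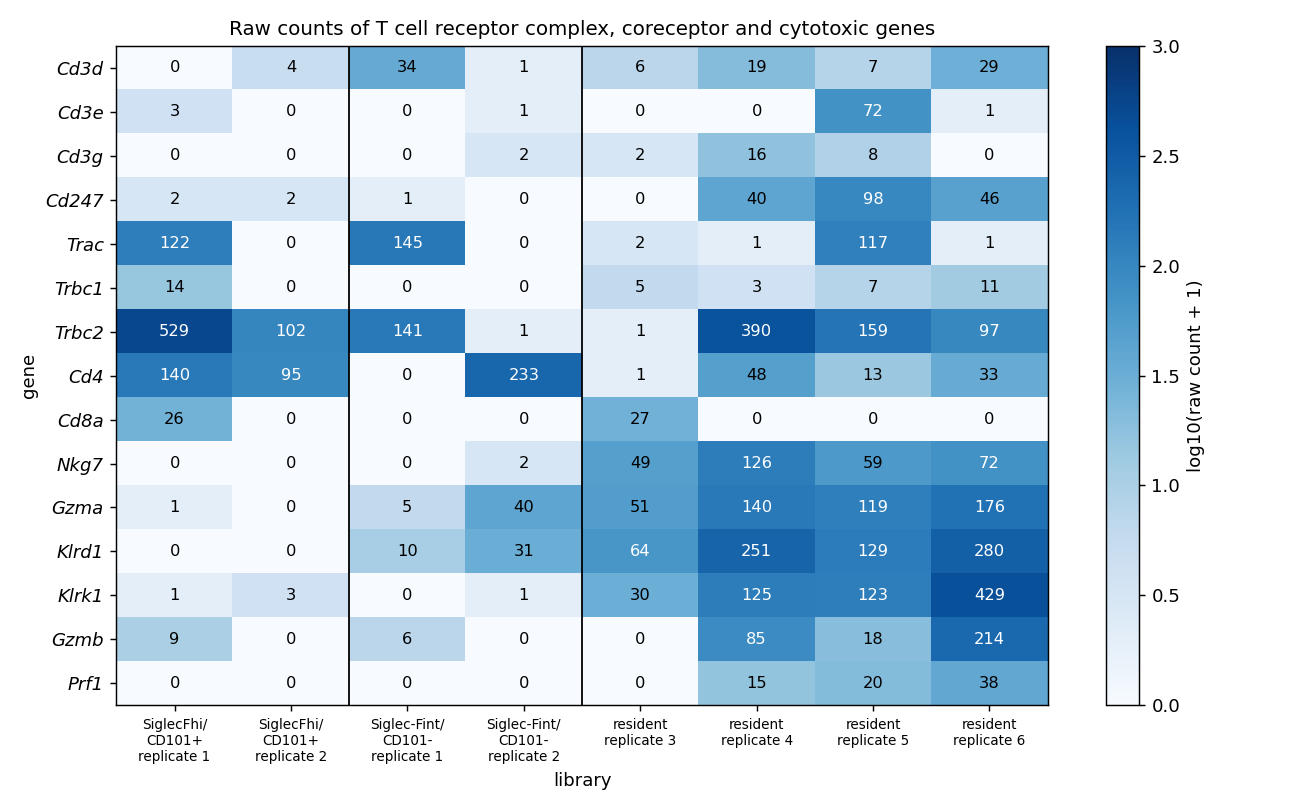
Raw counts of 7 T cell receptor complex genes, the coreceptors Cd4 and Cd8a, and 6 cytotoxic or NK genes (rows) in the 8 libraries (columns); shading is log10(raw count + 1). Receptor complex counts are scattered over libraries of all groups. Nkg7, Gzma, Klrd1 and Klrk1 have counts in all 4 resident libraries, as do Cd3d, Trac, Trbc1 and Trbc2. Gzmb and Prf1 have 0 counts in resident replicate 3.

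The wider list of T cell receptor signalling holds 19 genes beside the CD3 members, all with a count somewhere. Of these 12 were tested by edgeR, 0 passed in any comparison, and at an unadjusted p under 0.05 there was 1 higher in SiglecFhi/CD101+ against resident libraries, 2 higher in Siglec-Fint/CD101- against resident and 0 between the subsets. Of all genes tested, 3.65% and 1.9% were higher against resident libraries in that order, and 17.9% had such a p between the subsets. The median log2 fold changes of the 12, with bounds, were -0.16 for SiglecFhi/CD101+ and -0.90 for Siglec-Fint/CD101- against resident libraries. Those of all genes tested were -0.65 and -0.72. Lcp2, the adaptor SLP-76 that myeloid cells also make, had 3 and 63 counts in SiglecFhi/CD101+ libraries, 80 and 1 in Siglec-Fint/CD101- libraries, and 96, 1636, 54 and 1219 in resident libraries, so its groups overlapped in CPM (adjusted p = 0.647 and 0.774 against resident libraries, edgeR). Cd2, an adhesion receptor of T and NK cells, had 183 and 79 counts in SiglecFhi/CD101+, 118 and 2 in Siglec-Fint/CD101- libraries, and 218 to 519 in resident ones. In CPM, Cd2 was at 72.6 ± 34.5, 43.5 ± 59.8 and 34.1 ± 19.7 (SD) in that order, and its groups overlapped. Ptprcap, which encodes a partner of the phosphatase CD45 in lymphocytes, had 54 and 0 counts in SiglecFhi/CD101+, 402 and 40 in Siglec-Fint/CD101- libraries, and 18 to 459 in resident ones, so its groups overlapped. The gamma and delta chain constant genes had few counts, each in a single library, and none was tested. Tcrg-C4 had 116 counts, all in resident replicate 4, Tcrg-C2 had 44 and Tcrg-C1 had 2, all in resident replicate 5, and Trdc had 10, all in Siglec-Fint/CD101- replicate 1.

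Thy1 encodes CD90, a small glycoprotein that coats mouse T cells and innate lymphoid cells and is also found on fibroblasts (chromosome 9, 44043384 to 44048579, plus strand; ENSMUSG00000032011). It had 100 and 0 counts in SiglecFhi/CD101+ libraries, 0 and 0 in Siglec-Fint/CD101- libraries, and 1, 100, 164 and 142 in resident libraries. In CPM it was at 26.5 ± 37.5 in SiglecFhi/CD101+ and 7.24 ± 4.95 in resident libraries, and over summed counts it was at least 17.1-fold lower in Siglec-Fint/CD101- than in resident libraries, or 7.46-fold per count outside the mitochondrial genome. That bound was 11.3-fold or 5.74-fold with 1 Siglec-Fint/CD101- library left out. The Siglec-Fint/CD101- and resident groups did not overlap, but only by the single count of resident replicate 3. Of tested genes, 29.3% were lower without overlap in Siglec-Fint/CD101- than in resident libraries. The edgeR test gave adjusted p-values of 0.605 for SiglecFhi/CD101+ and 0.312 for Siglec-Fint/CD101- against resident libraries, and 0.243 for SiglecFhi/CD101+ against Siglec-Fint/CD101- libraries. The first of these had a log2 fold change of 1.87 ± 1.75, and of -8.78 without SiglecFhi/CD101+ replicate 1, which leaves that group at 0 counts. Markers of fibroblasts and endothelium, all 10 with counts in every library, summed to 878 to 990 CPM in SiglecFhi/CD101+, 749 to 1003 CPM in Siglec-Fint/CD101- libraries, and 187 to 1073 CPM in resident ones, and their part in the Thy1 counts was not tested.

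Il7r was the one marker with counts in all 8 libraries (chromosome 15, 9505788 to 9530176, minus strand; ENSMUSG00000003882). It encodes the IL-7 receptor alpha chain, which T cells and innate lymphoid cells need for survival and which also forms the receptor for the epithelial cytokine TSLP. It had 5 and 28 counts in SiglecFhi/CD101+ libraries, 9 and 60 in Siglec-Fint/CD101- libraries, and 17, 119, 56 and 307 in resident libraries. In CPM it was at 9.86 ± 10.2 in SiglecFhi/CD101+, 21.9 ± 21.7 in Siglec-Fint/CD101- libraries, and 9.13 ± 8.04 in resident ones, and all groups overlapped. The log2 fold changes were 0.10 ± 1.41 for SiglecFhi/CD101+ and 1.26 ± 1.36 for Siglec-Fint/CD101- against resident libraries, and -1.15 ± 1.66 between the subsets, with adjusted p-values of 0.981, 0.646 and 0.762 by edgeR. The differences were smaller than their SE, so the group levels could not be put in order.

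The partners of IL-7 receptor alpha were tested from a list of 8 genes, of which 5 passed the filter and 0 passed edgeR's test in any comparison. At an unadjusted p under 0.05, 3 were lower in SiglecFhi/CD101+ against resident libraries, 0 were lower in Siglec-Fint/CD101- against resident and 2 were lower in SiglecFhi/CD101+ against Siglec-Fint/CD101- libraries. Of all genes tested, 13.1%, 13.8% and 7.96% were lower in that order. The median log2 fold changes of the 5, with bounds, were -2.36, -1.03 and -0.98 in the same order, against -0.65, -0.72 and 0.18 for all genes tested. Il2rg, the common gamma chain that completes the IL-7 receptor, was listed at 0 in all 8 libraries and was picked knowing its values, and whether the counting step set this 0 was not tested. Crlf2, the chain that completes the TSLP receptor, had 26 and 2 counts in SiglecFhi/CD101+ libraries, 45 and 192 in Siglec-Fint/CD101- libraries, and 230, 1081, 839 and 1116 in resident libraries. Its log2 fold change was -3.08 ± 1.09 for SiglecFhi/CD101+ against resident libraries (adjusted p = 0.224), 0.25 ± 0.90 for Siglec-Fint/CD101- against resident (adjusted p = 0.914) and -3.33 ± 1.17 between the subsets (adjusted p = 0.239). Jak1, a kinase of these receptors, was at 0.04 ± 0.81 and -0.27 ± 0.82 on the log2 scale for SiglecFhi/CD101+ and Siglec-Fint/CD101- against resident libraries. Stat5a, a transcription factor that they activate, had 0 counts in both SiglecFhi/CD101+ libraries, 22 and 0 in Siglec-Fint/CD101- libraries and 142 to 378 in resident libraries. Stat5b, its close relative, had 14 and 24 counts in SiglecFhi/CD101+ libraries, 0 and 31 in Siglec-Fint/CD101- ones and 158 to 302 in resident ones. In CPM, Stat5b in SiglecFhi/CD101+ (7.42 and 14.6) and Siglec-Fint/CD101- libraries (0 and 19.2) overlapped the resident range of 12.3 to 26.4. Against resident libraries its log2 fold changes by edgeR were -0.84 ± 1.47 (adjusted p = 0.815) and -1.03 ± 1.49 (adjusted p = 0.749) in that order. Stat5a was at -1.50 ± 1.64 for Siglec-Fint/CD101- against resident libraries (adjusted p = 0.651, edgeR).

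Genes of group 2 innate lymphoid and T helper 2 cells held 17 entries, of which 11 were tested and 0 passed edgeR's test in any comparison. At an unadjusted p under 0.05, 4 were lower in SiglecFhi/CD101+ against resident libraries, 1 was lower in Siglec-Fint/CD101- against resident, 2 were lower in SiglecFhi/CD101+ against Siglec-Fint/CD101- libraries, and 0 were higher in any. Of all genes tested, 13.1%, 13.8% and 7.96% were lower in that order, and 3.65%, 1.9% and 9.98% higher. The median log2 fold changes of the 11 against resident libraries, with bounds, were -0.93 for SiglecFhi/CD101+ and -0.93 for Siglec-Fint/CD101- libraries. Those of all genes tested were -0.65 and -0.72. Ptgdr2 and Calca had 0 counts throughout. Il1rl1, the IL-33 receptor, which mast cells and eosinophils can also carry, had 2 and 6 counts in SiglecFhi/CD101+ libraries, 2 and 1 in Siglec-Fint/CD101- libraries, and 146, 947, 290 and 633 in resident libraries. Each resident library (20.3 to 74.5 CPM) lay above each subset library (0.621 to 3.66 CPM). Of tested genes, 27.4% in SiglecFhi/CD101+ and 29.3% in Siglec-Fint/CD101- libraries were lower than in resident ones without overlap. The log2 fold changes of Il1rl1 were -4.10 ± 1.42 (adjusted p = 0.223, edgeR) for SiglecFhi/CD101+ and -5.27 ± 1.56 (adjusted p = 0.284) for Siglec-Fint/CD101- against resident libraries. Id2, a repressor that innate lymphoid cells need and dendritic cells also make, had 71 and 37 counts in SiglecFhi/CD101+, 92 and 8 in Siglec-Fint/CD101- libraries, and 877 to 2199 in resident ones. In CPM, Id2 in Siglec-Fint/CD101- libraries (66.9 and 4.97) overlapped the resident range of 65.6 to 151. The SiglecFhi/CD101+ libraries (37.6 and 22.6) lay below that range, as they did for 27.4% of tested genes. Kit, the stem cell factor receptor of mast cells and some innate lymphoid cells, had 1 and 1 counts in SiglecFhi/CD101+, 21 and 47 in Siglec-Fint/CD101- libraries, and 113 to 321 in resident ones (adjusted p = 0.21 for SiglecFhi/CD101+ against resident). In CPM, Kit in Siglec-Fint/CD101- libraries (15.3 and 29.2) overlapped the resident range of 13.6 to 22.5. Rora, a factor needed for group 2 innate lymphoid cells, overlapped between groups, with 189 and 21 counts in SiglecFhi/CD101+ libraries, 11 and 15 in Siglec-Fint/CD101- ones and 44 to 347 in resident ones.

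**Figure D4:**
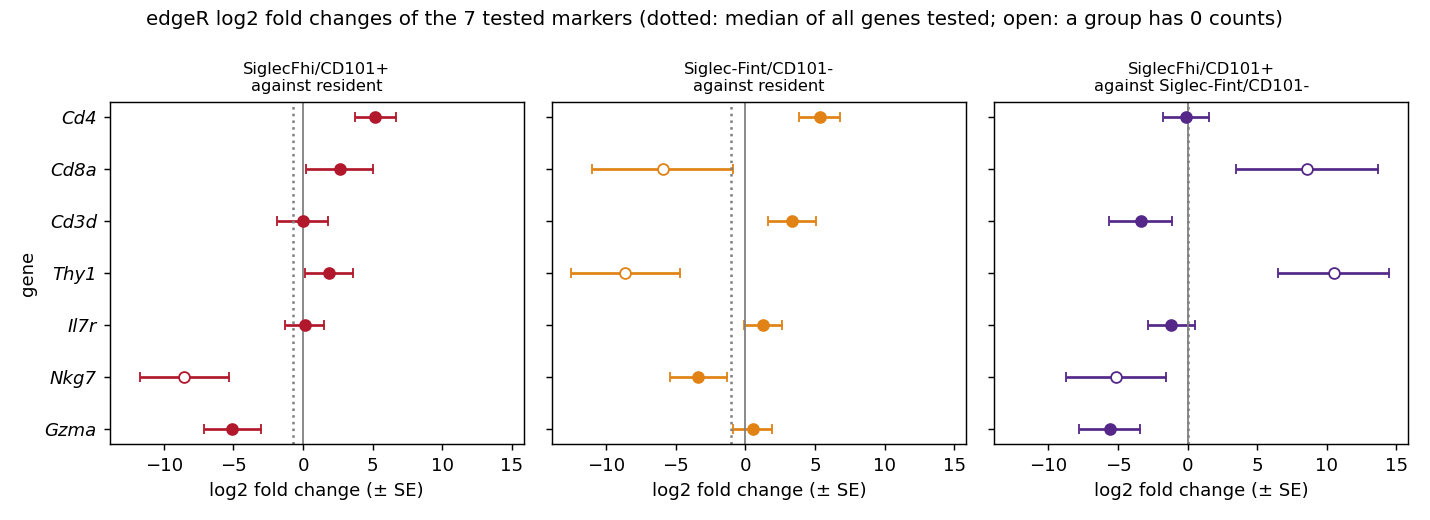
Log2 fold changes (± SE) of the 7 tested markers in the 3 comparisons, from edgeR; open points mark a comparison in which 1 group has 0 counts and the fitted value depends on the method, and dotted lines show the median of all genes tested. Cd4 lies at 5.20 and 5.33 against resident libraries, Gzma at -5.08 for SiglecFhi/CD101+ and 0.53 for Siglec-Fint/CD101- libraries, and none passed the test.

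Of the 7 tested markers, 4 were above and 3 below 0 in each comparison with resident libraries, with a median log2 fold change of 0.10 for SiglecFhi/CD101+ and 0.53 for Siglec-Fint/CD101- libraries. The medians of all genes tested were -0.72 and -0.997. With genes at 0 in a group set at their bound, the marker medians were 0.10 and 0.84 and the all-gene medians -0.65 and -0.72. The 0.84 is the value of Cd8a, whose floor of 3 counts lay above the resident level on this scale, so it bounds nothing. Between the subsets the marker median was -1.15 and the all-gene median 0, or -0.64 over the 6 markers left without Nkg7 and 0.18 with bounds. These values are descriptions, because Cd3e and Cd3g are left out and a gene such as Cd8a entered through 2 libraries alone. Both comparisons with resident libraries share those 4 libraries. Markers of B and plasma cells, other lymphocytes the samples could hold, summed to 723 to 1653 CPM in SiglecFhi/CD101+, 785 to 1622 CPM in Siglec-Fint/CD101- libraries, and 122 to 238 CPM in resident ones, with all 10 genes found in each group. Igha alone averaged 770, 520 and 3.63 CPM in that order. It passed edgeR's test against resident libraries for both SiglecFhi/CD101+ (adjusted p = 0.041) and Siglec-Fint/CD101- libraries (adjusted p = 0.0409). Markers of macrophages and monocytes, all 11 found in each group, summed to 2511 to 3090 CPM in SiglecFhi/CD101+, 2555 to 5707 CPM in Siglec-Fint/CD101- libraries, and 1548 to 2163 CPM in resident ones. Chil3 and Lyz2 carried most of that sum, and 9 of the 11 genes had a lower mean CPM in SiglecFhi/CD101+ and 8 in Siglec-Fint/CD101- than in resident libraries. Chil3 passed edgeR's test for Siglec-Fint/CD101- against resident libraries (log2 fold change 2.31 ± 0.38, adjusted p = 0.0409). For SiglecFhi/CD101+ against resident libraries it was at 1.69 ± 0.38 and did not pass (adjusted p = 0.11). Lyz2 was at -0.18 ± 0.40 for SiglecFhi/CD101+ and -0.15 ± 0.40 for Siglec-Fint/CD101- against resident libraries. Of the B and plasma cell genes, 6 of 10 in SiglecFhi/CD101+ and 9 of 10 in Siglec-Fint/CD101- libraries had a higher mean than in resident ones. Of the 11828 genes tested, 7553 in SiglecFhi/CD101+ and 7910 in Siglec-Fint/CD101- libraries had a log2 fold change below 0 against resident ones. Above 0 were 4274 and 3905 genes. The part of B cells, plasma cells, macrophages and monocytes in these results was not tested.

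The markers were scattered among libraries about as much as other genes of their depth. The highest library held between 35.1% (Nkg7) and 75.6% (Cd3d) of a marker's CPM summed over libraries, with a median of 51.0% over the 9. Over the 9381 genes outside the mitochondrial genome with a summed count in the same range, 28 to 601, that median was 50.8%, and the median number of libraries with a count was 5 for the markers and 5 for those genes. The libraries held counts of 6 and 3 markers in the SiglecFhi/CD101+ group, 3 and 7 in the Siglec-Fint/CD101- group and 7 or 8 in each resident library, along with the higher depth of the resident libraries.

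The genes most like each tested marker were found by the root mean square difference of log2 CPM (prior count 2) over the 8 libraries, each gene centred on its mean, among 10954 named genes. Nkg7 was closest to Stab1, C9orf72 and Il18, at 0.301 to 0.35 on the log2 scale, where the median gene was at 2.24. Gzma was closest to Rab28, Sec24b and Fgfr1 (0.444 to 0.502), Thy1 to Fbxl12, Fam214a and Blcap (0.393 to 0.519), and Cd8a to Glb1l3, Syndig1 and Slc25a40 (0.315 to 0.482). Cd3d was closest to Utp11, Bin3 and Hook3 (0.676 to 0.759) and Il7r to Neurl3, Man1a and Padi4 (0.667 to 0.683). The nearest genes to Cd4, which were Tatdn2, Efna5 and Lypd6b, lay at 1.21 to 1.31, where the median gene was at 3.98. These distances are not scaled to a marker's own spread. That spread, as a root mean square over libraries, was 3.26 for Cd4 and 1.27 (Il7r) to 2.86 (Thy1) for the other tested markers. None of these 21 genes is a marker of the set.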

How the data were processed

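Per the labels, a NextSeq instrument read the CEL-Seq libraries. The deposited tables hold whole-number counts per gene, made by the authors without normalization, as unequal totals show. Tools listed, per the submitters' processing notes, are HTSeq 0.6.1, TopHat2 2.1.0, Bowtie2 2.2.6, cutadapt 1.10, Trim Galore, FastQC 0.11.5 and DESeq2 1.28.0. Build, strand setting and handling of molecular identifiers: not given in the sources used here. Where amplified copies were counted, they add to the spread and counting intervals are too narrow.

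Of 54446 identifiers, 54409 matched a symbol. Positions are from GENCODE on GRCm38; the files give none. Groups came from sample titles. The markers and gene lists were chosen with earlier results of these data known. Up to 4 genes per list, those with the highest summed counts, were named, as were the 3 tested genes most like each tested marker; exceptions are marked. Counts were tested in R 4.3.3 with edgeR 4.0.16 (TMM, filterByExpr, group means over all 8 libraries, robust quasi-likelihood, two-sided, Benjamini-Hochberg adjusted p under 0.05). An approximate SE is the log2 fold change over the square root of F. The fit was tested on simulated data with changes placed only in genes at or above the median log2 CPM. It cannot show how well changes in genes below that level are found. Ratios of summed counts carry exact 95% intervals (Clopper-Pearson). Alternatives were other scalings, no mitochondrial genes, no filter, DESeq2 1.42.0, leaving out each library, and a replicate block.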

Additional observations from a re-analysis of the deposited data

Results flagged for a closer look

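Within the 4 resident libraries, 1 library stood far from the others for 2 of the 9 markers. Cd8a was at 4.51 CPM (27 counts) in resident replicate 3 and at 0 in the other resident libraries. Cd3e was at 5.05 CPM (72 counts) in resident replicate 5, with the next highest at 0.0665 CPM. The gap between the outlying library and its nearest neighbour was 1 and 0.987 of the group's whole range, above Dixon's critical value at 95% for 4 samples. The gap is 1 by construction where a single library has counts, as for Cd8a. Chance passes that value in about 1 of 20 groups of continuous measurements, but among the 9250 genes with a summed count in the markers' range and a count in some resident library, 23.7% had a resident library past it.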

How the results depend on the processing

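Genes called numbered 3 for SiglecFhi/CD101+ against resident, 7 for Siglec-Fint/CD101- against resident and 1 for SiglecFhi/CD101+ against Siglec-Fint/CD101- libraries. In the same order they numbered 370, 136 and 85 with no filter and 1079, 620 and 1132 with DESeq2. With library totals alone the first 2 were 7 and 3. Leaving out 1 library gave 1 to 133, 0 to 9 and 0 to 2, with 131 and 133 without Siglec-Fint/CD101- replicate 1 or 2. Of 297 marker log2 fold changes over 21 results, 264 kept their direction and side of the threshold, 25 reversed and 8 passed the threshold only in the alternative. The cause was not tested. For SiglecFhi/CD101+ against resident libraries, Cd3d was 0.45 with RLE, 0.21 with upper-quartile scaling, 0.049 without mitochondrial genes and 0.44 with DESeq2, and Il7r was -0.28 with library totals alone. With library totals alone, Gzma was -0.66 for Siglec-Fint/CD101- against resident and Cd4 0.47 between the subsets. Leaving out 1 library gave, for SiglecFhi/CD101+ against resident, Cd8a -6.08 to 3.55, Cd3d -6.25 to 0.89, Thy1 -8.78 to 2.76 and Il7r -1.89 to 0.95. For Siglec-Fint/CD101- against resident it gave Cd4 -6.78 to 6.26, Cd3d -1.03 to 4.29, Il7r -0.51 to 2.04 and Gzma -1.46 to 1.27. Between the subsets it gave Cd4 -1.18 to 11.87, Cd3d -9.57 to 0.91 and Il7r -3.10 to 0.51. A lone library left in a subset is assumed to vary like the other groups. No value was given where both groups had 0 counts (Nkg7, Cd8a and Thy1 between the subsets), for Cd3d without any 1 resident library or for Cd8a without resident replicate 3, where they failed the filter, so their ranges rest on fewer libraries left out. Of 18 ratios of summed counts, 8 left their counting interval when taken per count outside the mitochondrial genome. The subsets share replicate numbers, but same-numbered libraries did not deviate together (correlation 0.00665). Resident libraries carry other numbers, so the block compares replicates 2 and 1 of the subsets with resident libraries at 0, and its values against resident libraries depend on that coding. With it, genes called were 1, 0 and 0, and reversed values were Cd8a -0.65, Cd3d 0.35, Thy1 -2.39 and Il7r -0.44 for SiglecFhi/CD101+ against resident, and Cd4 2.41 between the subsets. The all-gene median log2 fold change against resident libraries was -0.72 and -0.997 for the 2 subsets, -0.26 and -0.63 with RLE and -1.46 and -1.96 with library totals alone. The 444902 to 552121 counts outside the mitochondrial genome in each subset library limit what a count of 0 can show.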
